A study of Mus musculus with 18 samples.

Results

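The simple epithelial keratins described here are Krt7, Krt8, Krt18, Krt19 and Krt20, which were picked by name from the table and make up 5 of its 54831 genes. They were followed in kidney RNA of mice after sham surgery and after cold-storage-associated kidney transplantation, where the graft spends time in cold preservation before surgery. Both surgeries were sampled 1, 7 and 14 days later with 3 libraries each, 18 in all, so every day has its own sham controls and n = 3 holds for every mean ± SD below. Every sample carries the genotype label WT, and the RNA was taken from renal cortex with Trizol. Strain, sex, age, donor and time in the cold are not stated in the labels. Some label fields mention rat proximal tubule cells and a protocol of diabetes with ischemia, in conflict with the titles, and the grouping rests on the titles. Separate animals are not stated for the libraries, and the p-values therefore reflect spread among libraries that may be technical.

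Keratins are the intermediate filament proteins of epithelial cells, and a filament is built only when a type II keratin pairs with a type I keratin. Krt8 encodes the main type II keratin of simple, single-layered epithelia and Krt18 its usual type I partner. Krt7 encodes a second type II keratin, known from ducts and urothelium. Krt19, a type I keratin that lacks the tail domain, is known from ductal cells, and Krt20, also type I, marks the umbrella cells of urothelium and the differentiated epithelium of the gut. In the kidney, keratin filaments are normally richest in the collecting duct, and tubule cells are known to gain keratins after injury.

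The genes lie in the keratin clusters of chromosomes 15 and 11 in GRCm38, with gene bounds from GENCODE M21. Krt7 (ENSMUSG00000023039) spans chr15:101411043-101430313 on the plus strand, Krt8 (ENSMUSG00000049382) chr15:101996698-102004482 on the minus strand and Krt18 (ENSMUSG00000023043) chr15:102028180-102032027 on the plus strand. Krt8 and Krt18 therefore stand head to head, 23697 bases apart, and Krt18 is the only type I gene among the 3 on chromosome 15. Krt19 (ENSMUSG00000020911, chr11:100140810-100148665) and Krt20 (ENSMUSG00000035775, chr11:99428403-99438150) both lie on the minus strand, with starts 712407 bases apart.

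Promoter windows were available for 4 of the 5 genes (RefSeq, GRCm38.p6), all but Krt19. Each window runs 5′ to 3′ on the gene's strand, from 250 bases before the annotated start to 50 bases after it, and capitals mark matches to the motifs found. The annotated start here is that of RefSeq and differs from the GENCODE bounds given above. For Krt7 the whole window lies inside the GENCODE span of the gene.
Krt8 (chr15:102004293-102004592, minus strand): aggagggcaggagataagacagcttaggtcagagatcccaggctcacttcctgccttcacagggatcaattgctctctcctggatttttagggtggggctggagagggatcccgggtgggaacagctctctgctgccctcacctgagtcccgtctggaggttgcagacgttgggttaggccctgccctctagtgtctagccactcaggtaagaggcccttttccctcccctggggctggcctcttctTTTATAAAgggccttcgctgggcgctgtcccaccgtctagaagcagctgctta
Krt18 (chr15:102027966-102028265, plus strand): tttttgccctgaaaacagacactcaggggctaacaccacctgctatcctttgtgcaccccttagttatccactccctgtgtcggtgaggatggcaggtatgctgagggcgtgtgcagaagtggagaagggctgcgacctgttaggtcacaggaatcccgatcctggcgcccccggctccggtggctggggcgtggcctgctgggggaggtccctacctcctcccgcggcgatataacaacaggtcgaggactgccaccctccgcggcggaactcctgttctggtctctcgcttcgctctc
Krt7 (chr15:101412153-101412452, plus strand): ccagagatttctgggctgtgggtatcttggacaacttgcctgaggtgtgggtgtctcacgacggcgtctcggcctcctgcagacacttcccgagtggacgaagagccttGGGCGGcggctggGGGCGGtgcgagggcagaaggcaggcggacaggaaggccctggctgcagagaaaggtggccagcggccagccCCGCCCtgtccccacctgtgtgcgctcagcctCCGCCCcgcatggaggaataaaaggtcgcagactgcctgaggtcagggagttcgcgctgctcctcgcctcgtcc
Krt20 (chr11:99438104-99438403, minus strand): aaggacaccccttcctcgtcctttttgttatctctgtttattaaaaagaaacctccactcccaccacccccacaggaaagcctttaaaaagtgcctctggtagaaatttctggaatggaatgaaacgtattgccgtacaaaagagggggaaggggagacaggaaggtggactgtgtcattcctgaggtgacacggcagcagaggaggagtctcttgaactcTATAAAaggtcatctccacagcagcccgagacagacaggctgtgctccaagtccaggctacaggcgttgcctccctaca
The motifs, searched on both strands, began with the AP-1 site, whose letters TGANTCA occur in 7.81% of all 32817 promoters of the table. The GC box (GGGCGG) occurs in 35.6% of them. The TATA box (TATAAA) occurs in 13.6%, the STAT site (TTCNNNGAA) in 8.29%, and the CCAAT box in 37.4%. In the Krt20 window the TATA box began at position -29, counted from 1 at the annotated start with -1 as the base before it. In the Krt8 window a TATA box began at -1, directly at the annotated start, and overlapped a match on the other strand at -3. Krt7 held 4 GC boxes, at -141 and -128 on its own strand and at -56 and -24 on the other, and no TATA box. None of the 5 motifs matched in the Krt18 window. The AP-1 site, the STAT site and the CCAAT box had no match in any of the 4 windows. These matches are a description of the letters in the windows.

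Values are FPKM, fragments scaled by the authors to gene length and library total. Their sums ran from 386876 to 524362 per library, 18666 to 23088 genes lay above 0, and depth is unknown. Transcripts of the mitochondrial chromosome took 29.3% to 30.7% of the sum on average in sham and 22.0%, 16.5% and 25.7% in transplant at days 1, 7 and 14. Changes are given as limma log2 fold changes of FPKM + 1 with Benjamini-Hochberg adjustment over 15278 tested genes, and a gene was called at an adjusted p below 0.05. The median change of all tested genes was 0.31, 0.41 and 0.27 at days 1, 7 and 14, so a gene at those values kept its place among all genes. Krt7, Krt8 and Krt18 were at 1 FPKM or more in all 18 libraries. Krt19 reached that level in the 9 transplant libraries and 1 sham library and Krt20 in the 9 transplant libraries only, so both were tested because of their transplant levels. Their folds on this scale depend on the pseudocount of 1, and their p-values against sham and their ranks are given as descriptions. The kidney is bulk tissue, in which a changed share of keratin-rich cells and a changed amount of keratin RNA per cell cannot be told apart.

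In sham kidney the order of the levels was the same on each day, with Krt8 first, Krt7 next, then Krt18, and Krt19 and Krt20 near 0 with overlapping libraries. Each of the 5 keratins was higher after transplantation, with all 3 transplant libraries above all 3 sham libraries on each day. For Krt7, Krt8 and Krt18, whose testing did not depend on transplant levels, this separation stands beside 37.9%, 48.5% and 31.5% of all tested genes at days 1, 7 and 14. All 3 of these keratins were called higher on each day, against a background of 29.6%, 35.5% and 22.3% of tested genes called higher. In all, 4517 genes were called higher and 1460 lower at day 1, 5418 and 918 at day 7, and 3413 and 782 at day 14. Under median-of-ratios scaling, where the median change lay between 0.02 and 0.03, these numbers were 2244 and 2365, 1769 and 1952, and 1746 and 1707. What set the genes apart from each other was the size and timing, with Krt8 and Krt20 highest at day 1, Krt7 higher at day 7 than at day 1, and Krt18 and Krt19 close to level between those days.

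**Figure D1:**
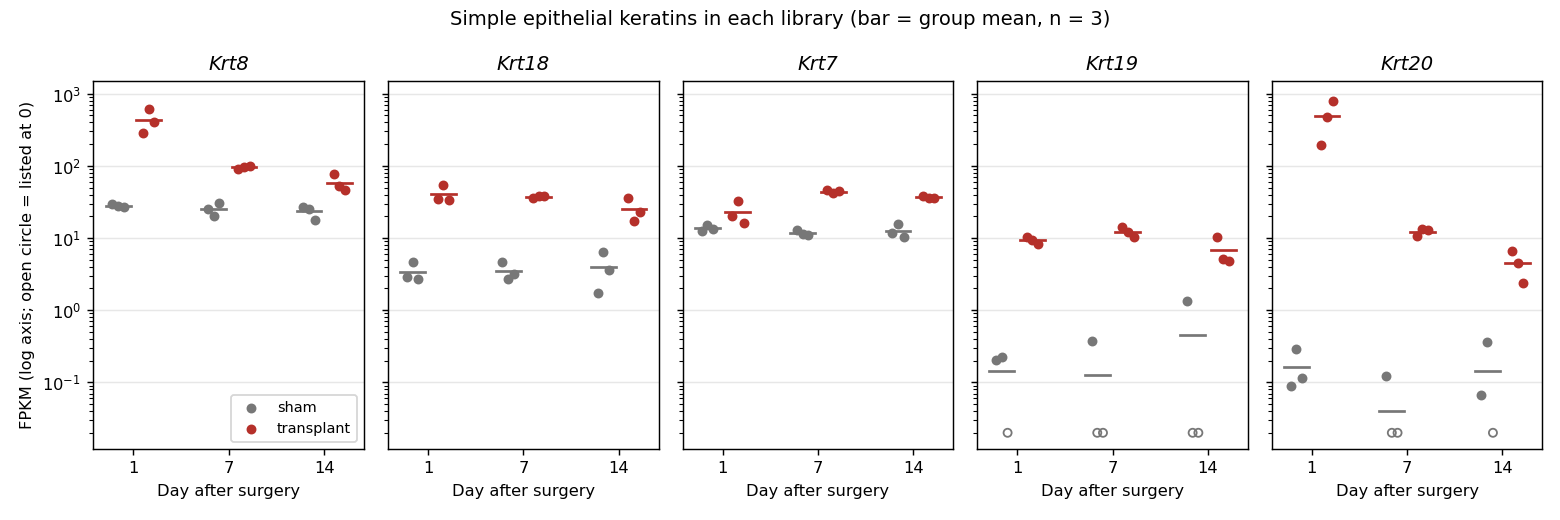
FPKM of each keratin (log axis) in each library by day after surgery, with sham in grey and transplant in red, bars at group means of 3 libraries and open circles for libraries listed at 0. Transplant points lie above sham points for all 5 genes on each day, Krt8 falls from a mean of 435 to 58.3 FPKM and Krt20 from 489 to 4.52 FPKM between day 1 and day 14, and Krt7 is higher at days 7 and 14 than at day 1.

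Krt8 measured 29.5, 27.7 and 27.3 FPKM in the sham libraries of day 1 and 285, 610 and 410 FPKM in the transplant libraries. The lowest transplant library was thus far above the highest sham library, although the transplant libraries varied more among themselves. At day 7 the sham libraries held 25.4, 20.1 and 30.5 FPKM and the transplant libraries 90.7, 95.7 and 99.9 FPKM, a narrow transplant group. At day 14 the values were 27.0, 25.7 and 17.6 FPKM in sham and 76.8, 52.2 and 45.9 FPKM in transplant, still without overlap. The group means were 435 ± 164 against 28.2 ± 1.18 FPKM at day 1, 95.4 ± 4.60 against 25.3 ± 5.22 at day 7 and 58.3 ± 16.4 against 23.4 ± 5.07 at day 14. The log2 fold change fell from 3.83 ± 0.24 (SE) at day 1, the 44th largest rise of all tested genes (limma adjusted p = 1.17e-09), to 1.89 ± 0.24 at day 7 and 1.27 ± 0.24 at day 14 (limma adjusted p = 8.17e-06 and 0.000693). Of the 3 keratins expressed in all sham libraries, Krt8 had the largest fold at day 1 and the lowest value at day 14, where Krt7 lay within the error of it.

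A processed pseudogene, Krt8-ps, can share reads with Krt8, and how such reads were counted is not given in the sources used here. It measured 2.11, 1.46 and 1.10 FPKM in sham and 9.85, 15.2 and 26.8 FPKM in transplant at day 1, a small fraction of Krt8, and rose by 2.75 ± 0.39 (SE) on the log2 scale (limma adjusted p = 2.18e-05). It was not called at day 7 or day 14 (limma adjusted p = 0.106 and 0.0617). Krt8 values may hold some reads of the pseudogene or the reverse.

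Krt18, the type I partner, started from a lower sham level and kept its increase longer. Its libraries held 2.85, 4.59 and 2.72 FPKM in sham and 34.4, 53.6 and 33.5 FPKM in transplant at day 1. At day 7 they held 4.71, 2.72 and 3.14 FPKM in sham and 35.7, 38.0 and 38.5 FPKM in transplant, a transplant level inside the range of day 1. At day 14 sham libraries held 1.76, 6.48 and 3.55 FPKM and transplant libraries 35.7, 17.3 and 22.7 FPKM. The transplant group of day 1 overlapped those of days 7 and 14. The lowest library of day 7 lay just above the highest of day 14 (35.716 against 35.702 FPKM). No transplant group overlapped its sham group. Mean levels were 40.5 ± 11.3, 37.4 ± 1.47 and 25.2 ± 9.46 FPKM in transplant at days 1, 7 and 14, against 3.39 ± 1.04, 3.52 ± 1.05 and 3.93 ± 2.38 FPKM in sham. Log2 fold changes were 3.23 ± 0.31, 3.11 ± 0.31 and 2.47 ± 0.31 (SE; limma adjusted p = 2.28e-07, 6.95e-07 and 1.70e-05), which ranked 87, 55 and 88 among 15278 genes.

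Krt7, the second type II keratin, showed the smallest early change of the 5 and its larger values later. At day 1 the sham libraries held 12.5, 15.4 and 13.3 FPKM and the transplant libraries 20.4, 32.5 and 16.1 FPKM, so the lowest transplant library was only just above the highest sham library. At day 7 they held 12.8, 11.3 and 11.0 FPKM in sham and 45.6, 41.8 and 44.8 FPKM in transplant. At day 14 the values were 11.9, 15.5 and 10.4 FPKM in sham and 38.6, 35.9 and 35.5 FPKM in transplant, and on both later days the groups were far apart. The log2 fold change was 0.65 ± 0.19 (SE) at day 1 (limma adjusted p = 0.0110, rank 4140), 1.83 ± 0.19 at day 7 (1.14e-06, rank 390) and 1.49 ± 0.19 at day 14 (2.12e-05, rank 538). The day 1 call rested on the scaling and on 1 library: under median-of-ratios scaling the change was 0.29 (limma adjusted p = 0.248), without transplant library 2 of day 1 it was 0.38 (limma adjusted p = 0.0739), and with only the 2 groups of day 1 fitted the adjusted p was 0.0642. Later calls held under every alternative that was run.

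Krt19, the tail-less type I keratin, was at or near 0 in sham and detected in each transplant library. Sham libraries held 0.201, 0.226 and 0 FPKM at day 1, 0.379, 0 and 0 FPKM at day 7 and 1.36, 0 and 0 FPKM at day 14. Transplant libraries held 10.4, 9.36 and 8.31 FPKM at day 1, 14.2, 12.2 and 10.5 FPKM at day 7 and 10.5, 5.09 and 4.75 FPKM at day 14. The only sham library above 0.379 FPKM was library 1 of day 14. Log2 fold changes were 3.18 ± 0.31, 3.57 ± 0.31 and 2.47 ± 0.31 (SE; limma adjusted p = 2.95e-07, 1.42e-07 and 1.77e-05), with ranks 91, 20 and 84, and its transplant levels stood below those of Krt18 on each day.

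Krt20, the umbrella cell and gut keratin, had the widest range of all. Sham libraries held 0.0890, 0.290 and 0.116 FPKM at day 1, 0.121, 0 and 0 FPKM at day 7 and 0.0663, 0.358 and 0 FPKM at day 14. At day 1 the transplant libraries held 193, 479 and 794 FPKM, which puts Krt20 level with Krt8, as their libraries overlapped. Transplant libraries then held 10.6, 13.2 and 13.1 FPKM at day 7 and 6.65, 4.53 and 2.39 FPKM at day 14. Even the lowest transplant library, at day 14, lay above the highest sham library. Log2 fold changes were 8.50 ± 0.36, 3.67 ± 0.36 and 2.21 ± 0.36 (SE; limma adjusted p = 1.66e-11, 6.15e-07 and 0.000231), which, as a description, placed Krt20 2nd, 17th and 123rd among the 15278 tested genes. With pseudocounts of 0.1 to 5 and the other settings that were run, the day 1 value ranged from 6.36 to 10.7 and the day 14 value from 0.87 to 4.44, all called.

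**Figure D2:**
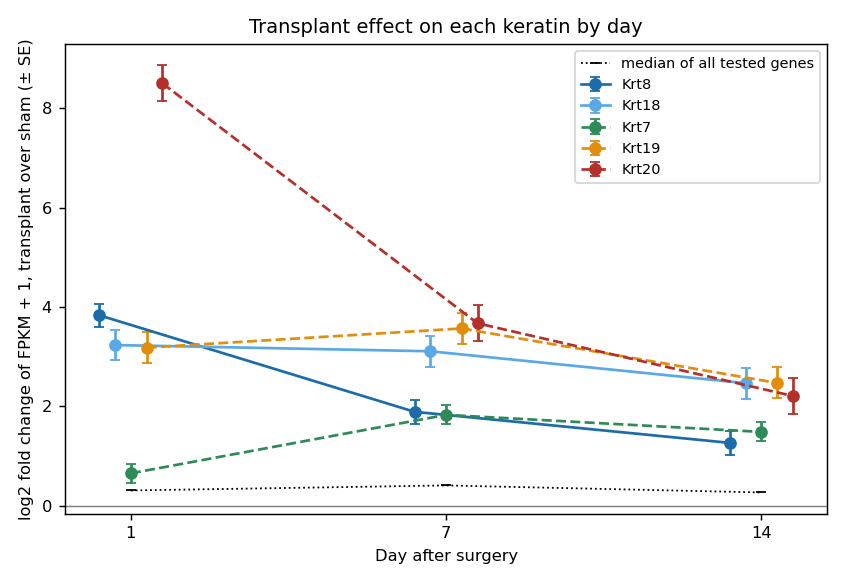
Log2 fold change of FPKM + 1, transplant over sham, for each keratin by day after surgery, with bars for the SE of the limma fit over 18 libraries. Krt8 and Krt18 have full lines, the other 3 genes dashed lines, and the dotted line gives the median of all tested genes. Krt20 drops from 8.50 to 2.21 and Krt8 from 3.83 to 1.27, Krt18 and Krt19 stay between 2.47 and 3.57, and Krt7 moves from 0.65 to 1.83 and 1.49.

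The change of the transplant effect between days was tested directly, as the difference of the transplant over sham effects. From day 1 to day 7 the effect fell by 1.94 on the log2 scale (SE 0.33) for Krt8 and by 4.83 (SE 0.51) for Krt20, and rose by 1.18 (SE 0.27) for Krt7 (limma adjusted p = 0.00199, 2.72e-05 and 0.0164). Of the 3 keratins at 1 FPKM or more in all libraries, Krt7 and Krt8 were called, beside 4.37% of all tested genes. The effect on Krt18 differed by -0.13 (95% interval -1.05 to 0.80; limma adjusted p = 0.935) and that on Krt19 by 0.39 (95% interval -0.54 to 1.31; limma adjusted p = 0.747), intervals that leave room for changes of nearly 1 on the log2 scale in either direction for Krt18.

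From day 7 to day 14 limma called 0 of the 5 keratins, beside 0.615% of all tested genes. At an unadjusted p below 0.05 there were 2, Krt19 with a difference of -1.10 (95% interval -2.02 to -0.17; limma adjusted p = 0.333) and Krt20 with -1.46 (95% interval -2.54 to -0.38; limma adjusted p = 0.259). Krt8 differed by -0.62 (95% interval -1.33 to 0.076). From day 1 to day 14 the effect differed by -2.57 for Krt8 (SE 0.33) and by -6.29 for Krt20 (SE 0.51), with limma adjusted p = 8.57e-05 and 7.99e-07, beside 10.3% of tested genes called in either direction. Krt7 differed by 0.83 over that span (limma adjusted p = 0.0575), and was called without transplant library 2 of day 1 (1.10, limma adjusted p = 0.00401) or sham library 2 of day 14 (0.98, limma adjusted p = 0.0348). Krt18 and Krt19 differed by -0.77 and -0.71 (limma adjusted p = 0.307 and 0.353). Sham levels of the keratins moved little: in 15 tests between sham days limma called 0, 0 had an unadjusted p below 0.05, and the smallest p was 0.255, beside 0.00% to 0.00655% of all tested genes called.

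Because Krt8 and Krt18 assemble together, the level of each keratin was set against Krt8 within the same library, with 0.1 FPKM added to both. Where both genes are well above 0.1 FPKM, this ratio hardly changes with the scaling of the library. For Krt19 and Krt20 in sham, which lay near 0, it can change. FPKM is scaled to length, but the length used for each gene is not given in the sources used here, so the changes of a ratio are firmer than its size. Krt18 per Krt8 was 0.0997, 0.169 and 0.103 in the sham libraries and 0.121, 0.0880 and 0.0820 in the transplant libraries of day 1, overlapping. At day 7 it was 0.188, 0.140 and 0.106 in sham and 0.394, 0.398 and 0.386 in transplant, and at day 14 it was 0.0685, 0.255 and 0.206 in sham and 0.465, 0.333 and 0.495 in transplant. Krt18 therefore rose in step with Krt8 at day 1 and stood higher relative to it at days 7 and 14, without overlap. Over the 3 days together the log2 ratio was higher by 0.87 in transplant (exact permutation test within days, two-sided, p = 0.0135, adjusted p = 0.0180 over 4 ratios). The small p-values of the Krt19 and Krt20 ratios are among these 4 and lower the adjusted p. The Krt18 to Krt8 ratio also differed between the days within transplant (exact permutation adjusted p = 0.0179). With a pseudocount of 1 in place of 0.1 the difference over the 3 days was 0.61 and not called (exact permutation adjusted p = 0.0688).

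Krt7 per Krt8 went the other way at day 1. It was 0.425, 0.556 and 0.488 in sham and 0.0720, 0.0535 and 0.0395 in transplant, so Krt7 was outpaced by Krt8 in each library. At day 7 the mean ratio was 0.463 ± 0.0352 in transplant and 0.478 ± 0.105 in sham, and at day 14 it was 0.655 ± 0.139 and 0.546 ± 0.0912, with overlap on both days. The difference by day was -3.19, -0.02 and 0.25 on the log2 scale, and its mean over days, -0.99, was not called (exact permutation, p = 0.0785, adjusted p = 0.0785). The ratio differed between the days within transplant (exact permutation adjusted p = 0.0143).

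Krt19 and Krt20 each gained on Krt8 over the 3 days together, by 3.09 and 4.87 on the log2 scale (exact permutation, p = 0.00025 for each, the smallest the design can give, adjusted p = 0.0005). Both were tested because of their transplant levels, and their sham ratios rest largely on the added 0.1, so these p-values are descriptions. The timing was opposite. Krt19 per Krt8 averaged 0.0243 in transplant at day 1 and 0.131 and 0.114 at days 7 and 14, and Krt20 per Krt8 averaged 1.13 at day 1 and 0.130 and 0.0768 later. Within transplant both ratios differed between days (exact permutation adjusted p = 0.0179 for Krt19 and 0.0143 for Krt20, whose raw p of 0.00357 is the smallest possible), while within sham all 4 ratios had an exact permutation adjusted p = 0.886. The tests between days were chosen after seeing the data. With a pseudocount of 1 the Krt19 difference was 0.74 and not called (exact permutation adjusted p = 0.0688). The Krt20 difference was 2.46 with a pseudocount of 1 and 6.43 with 0.01, so its size depends on the pseudocount. Its adjusted p stayed below 0.05 with both, again as a description.

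**Figure D3:**
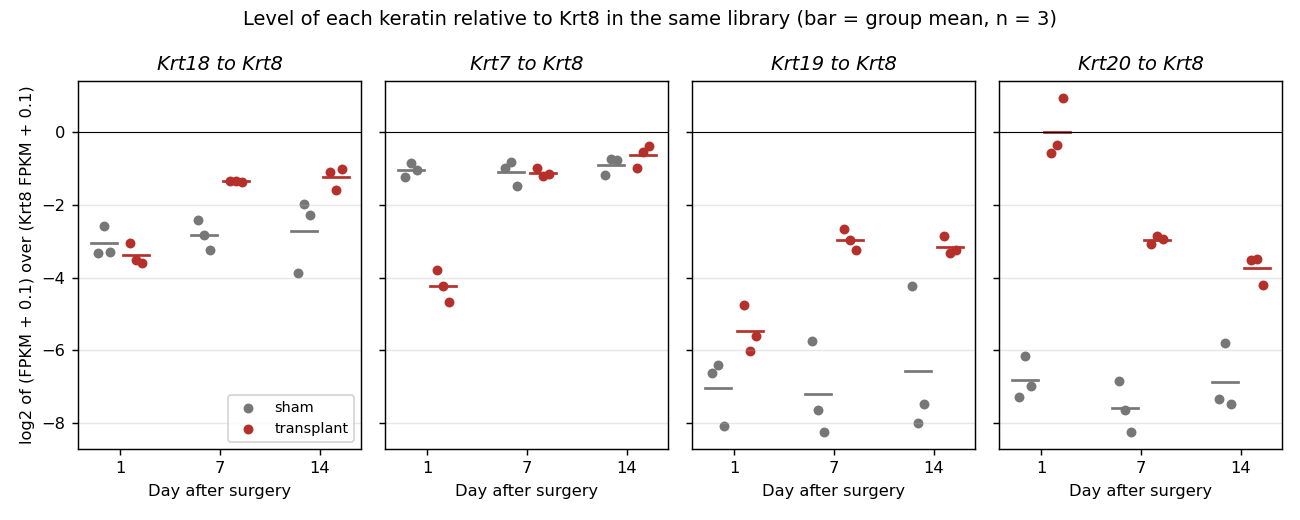
Log2 ratio of each keratin to Krt8 in the same library, with 0.1 FPKM added to both, by day after surgery, with sham in grey, transplant in red and bars at the means of 3 libraries. Krt18 lies above sham only at days 7 and 14, Krt7 lies below sham only at day 1, Krt19 rises from day 1 to day 7, and Krt20 is close to level with Krt8 at day 1 alone.

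The mix of keratin transcripts changed with these ratios. The 5 genes summed to 45.6, 40.7 and 40.6 FPKM in sham at days 1, 7 and 14 and to 997 ± 394, 201 ± 4.97 and 131 ± 31.9 FPKM in transplant. In sham at day 1, Krt8 made up 61.9% of the sum, Krt7 30.0% and Krt18 7.37%. In transplant at day 1, Krt20 made up 46.3% ± 14.6 and Krt8 45.5% ± 11.3, and Krt7 was down to 2.59%. By day 14 the transplant mix was 44.1% Krt8, 28.7% Krt7, 18.9% Krt18, 4.98% Krt19 and 3.35% Krt20. In summed FPKM, type II (Krt7 and Krt8) stood to type I (Krt18, Krt19 and Krt20) at 12.0, 10.7 and 8.71 to 1 in sham, against 0.992 ± 0.421, 2.25 ± 0.0818 and 2.73 ± 0.544 to 1 in transplant at days 1, 7 and 14. Transplant library 3 of day 1, with the highest Krt20, had the lowest such ratio at 0.509, and the other two libraries of that group had 1.28 and 1.19. These sums describe transcripts of the 5 genes and carry no test. The shares and ratios also rest on the unknown gene lengths behind the FPKM. In GENCODE M21 the exons of Krt7 cover 7049 bases, against 1437 to 1958 for the other keratins of the set.

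**Figure D4:**
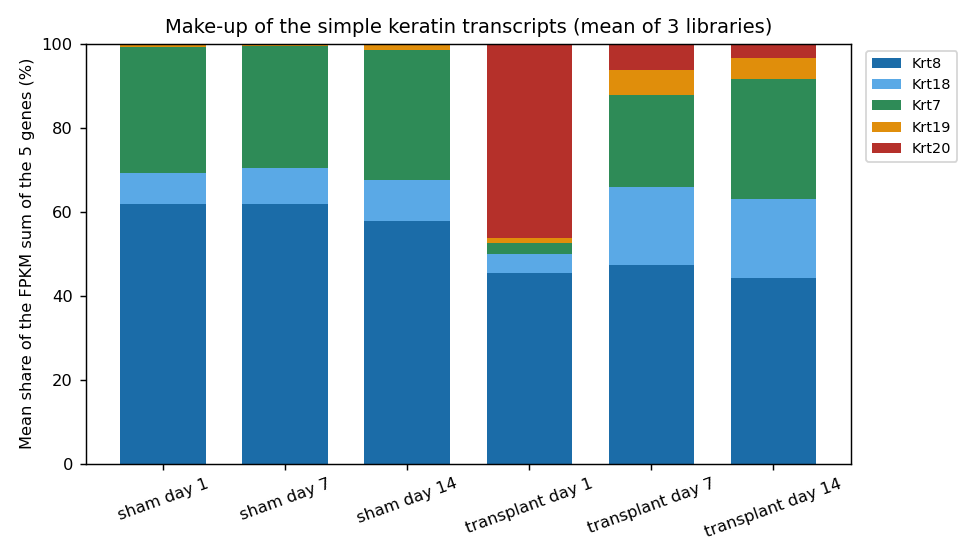
Mean share of each keratin in the FPKM sum of the 5 genes (percent, 3 libraries per bar) in each group. Krt8 and Krt7 fill most of the sham bars, Krt20 fills 46.3% of the transplant bar at day 1, and at day 14 Krt8, Krt7 and Krt18 hold 44.1%, 28.7% and 18.9%.

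Set among all tested genes, the keratins stood near the upper edge, except Krt7 at day 1 and, by a small margin, Krt8 at day 14. The places of Krt19 and Krt20 are descriptions, since both were tested because of their transplant levels. At day 1, 99% of genes lay below a log2 fold change of 2.62, which Krt8, Krt18, Krt19 and Krt20 passed. At day 7 that bound was 2.38, passed by Krt18, Krt19 and Krt20, and Krt7 and Krt8 lay above the 95% bound of 1.45. At day 14 the bounds were 2.11 and 1.33. Krt18, Krt19 and Krt20 passed the first, Krt7 the second, and Krt8, at 1.27, lay just below it.

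**Figure D5:**
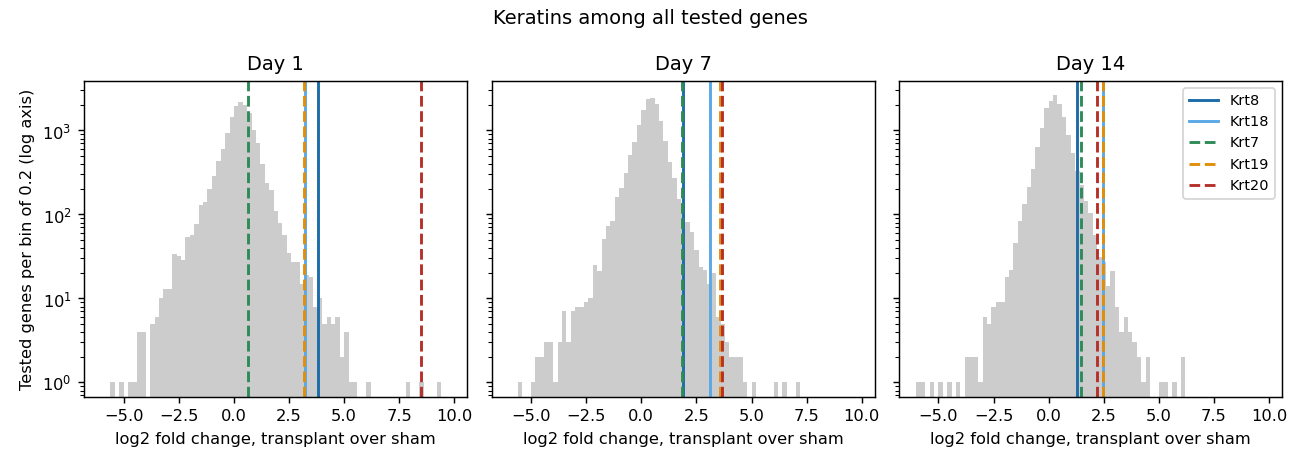
Number of tested genes (log axis, bins of 0.2) by log2 fold change, transplant over sham, at each day, with vertical lines at the 5 keratins. Krt20 at 8.50 stands apart at day 1, Krt7 at 0.65 lies within the main mass of genes on that day, and all 5 lie to the right of the peak at days 7 and 14.

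The genes with the most similar course over the 18 libraries differed from keratin to keratin. Likeness was the root mean square difference of sham-centred log2(FPKM + 1) over 12264 protein-coding genes, and it is a description with no p. For genes low in sham, among them Krt19, Krt20 and Adam8, it depends on the pseudocount of 1. Nearest to Krt8 were Adam8 (0.269), which encodes a membrane metalloprotease, S100a10 (0.322), which encodes the annexin A2 partner p11, and Mt1 (0.328), a metallothionein gene, all with their highest transplant level at day 1. For example, S100a10 averaged 552, 167 and 82.3 FPKM in transplant at days 1, 7 and 14. Adam8 averaged 17.2, 2.17 and 1.31 FPKM in transplant and 0.0863, 0.109 and 0.0433 FPKM in sham on these days. Nearest to Krt18 were Tubb2b (0.279), a beta-tubulin gene, and Clu (0.282), which encodes the secreted chaperone clusterin. Krt19 had Clu (0.378), Tubb2b (0.426) and Cd14 (0.449), the endotoxin co-receptor gene, nearest to it, so Tubb2b and Clu stood near both Krt18 and Krt19. Clu averaged 971, 817 and 549 FPKM in transplant at days 1, 7 and 14 and 88.7, 88.6 and 97.6 FPKM in sham.

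Nearest to Krt7 were Ptk7 (0.243), which encodes a receptor of planar cell polarity, Pfkp (0.247), which encodes the platelet form of phosphofructokinase, and Lfng (0.262), which encodes a glycosyltransferase acting on Notch, all higher at days 7 and 14 than at day 1 in transplant. No gene came close to Krt20: Sprr1a (1.28), a cornified envelope precursor gene, Akr1b8 (1.38), an aldo-keto reductase gene, and S100a6 (1.47), which encodes calcyclin, were its nearest. Among the keratins themselves Krt18 and Krt19 were closest (0.53), and 16 genes lay nearer to Krt18 than Krt19 did. This likeness depends on the pseudocount of 1, since Krt19 was at or near 0 in sham. Without it, mean FPKM in transplant over sham was 65.7, 97.4 and 15.0 for Krt19 at days 1, 7 and 14. For Krt18 it was 12.0, 10.6 and 6.42. Krt8 and its partner Krt18 stood at 0.90, with 211 genes nearer to Krt8.

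Most other keratins of the table were silent or near it, but Krt10 and Krt80 were above 0 in all 18 libraries. Their sham means were 3.01, 1.82 and 2.42 FPKM for Krt10 and 2.07, 1.84 and 2.39 FPKM for Krt80 at days 1, 7 and 14. Sham means of Krt18 were 3.39, 3.52 and 3.93 FPKM. Of 49 further keratin genes, 31 were listed at 0 in all 18 libraries, 13 were above 0 somewhere but too low to test, with 2.54 FPKM as their highest value, and 5 were tested (Krt5, Krt10, Krt15, Krt23 and Krt80). Krt5, the type II keratin of basal cells, was listed at 0 in the 3 sham libraries of day 1 and measured 2.92, 1.09 and 1.41 FPKM in transplant. It was at 0, 0.0536 and 0 FPKM in transplant at day 7 and at 1.43, 1.43 and 1.56 FPKM at day 14. Krt5 was called higher at day 1 (1.43 ± 0.24, SE, limma adjusted p = 0.000110) and day 14 (1.19 ± 0.24, limma adjusted p = 0.00131), not at day 7. As Krt5 reached 1 FPKM in transplant libraries only, it was tested because of its transplant levels, and its p-values are descriptions. Its partner Krt14, among those too low to test, held 2.54, 0.319 and 0 FPKM in transplant at day 1. Krt10, a suprabasal type I keratin, fell at day 1 (-0.68 ± 0.25, SE, limma adjusted p = 0.0398), and Krt15, Krt23 and Krt80 were not called on any day.

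Proteins that tie keratin filaments to desmosomes, hemidesmosomes and the membrane moved in part with the keratins. Of 12 tested linker genes, 8 rose and 1 fell at day 1, 8 rose and 0 fell at day 7, and 8 rose and 1 fell at day 14, against 7 and 2, 6 and 1, and 4 and 1 under median-of-ratios scaling. Their median log2 fold changes were 1.04, 0.93 and 0.63, beside 0.31, 0.41 and 0.27 over all tested genes. The counts of risen genes in this list and in the lists below are to be read beside the 29.6%, 35.5% and 22.3% of all tested genes called higher at days 1, 7 and 14. Some list genes, among them Ppl, Sox9, Klf5 and Fosl1, reached 1 FPKM in transplant libraries only. They were tested because of their transplant levels, so their p-values and their share in these counts are descriptions. Dsp, which encodes desmoplakin, the anchor of keratin at desmosomes, rose by 1.80 ± 0.19, 1.83 ± 0.19 and 1.21 ± 0.19 (SE) at days 1, 7 and 14 (limma adjusted p at most 0.000175). Plec, which encodes the cytolinker plectin, rose by 2.17, 1.54 and 1.35, and Ppl, which encodes periplakin, by 2.02, 2.71 and 1.54. Pkp4, a plakophilin-related gene, was the one that fell, by 0.34 at day 1 and by 0.45 at day 14.

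Filament genes outside the keratins also rose, 6 of 6 tested at days 1 and 7 and 4 of 6 at day 14, against 4, 5 and 3 under median-of-ratios scaling. Their medians were 1.08, 1.32 and 0.96. Vim, which encodes vimentin, the filament of mesenchymal and dedifferentiated cells, measured 109 ± 60.4 against 9.83 ± 1.36 FPKM at day 1 and rose by 3.21 ± 0.31, 1.87 ± 0.31 and 1.99 ± 0.31 (SE; limma adjusted p = 2.47e-07, 0.000149 and 0.000145). Lmna, which encodes lamin A/C of the nuclear lamina, rose by 2.46 at day 1, and Nes, which encodes nestin, by 1.07, 1.33 and 0.98 at the 3 days. Of the 6 fibroblast markers, 6, 6 and 5 rose (4, 5 and 5 under median-of-ratios scaling), and their part in the rise of Vim was not tested.

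Transcription factors of simple epithelia were mixed in direction. Of 13 tested, 8 rose and 2 fell at day 1, 9 rose and 1 fell at day 7, and 8 rose and 2 fell at day 14, against 6 and 2, 7 and 2, and 5 and 2 under median-of-ratios scaling, with medians of 0.68, 1.03 and 0.66. Sox9, a factor of tubular repair, rose by 3.44, 2.26 and 1.89, Klf5 by 2.59, 1.69 and 0.95 and Elf3, an epithelial ETS factor, by 1.71, 1.80 and 1.55. Hnf4a, a factor of the differentiated proximal tubule, fell by 1.07 at day 1 and by 0.82 at day 14. Ovol1, a repressor in epithelial differentiation, fell by 1.15, 0.55 and 0.68.

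Of 7 tested genes of AP-1 and related early factors, 6 rose at day 1, 6 at day 7 and 4 at day 14, and 0 fell, against 5, 4 and 3 risen under median-of-ratios scaling, with medians of 1.98, 1.15 and 0.89. Fosl1, which encodes the AP-1 subunit FRA-1, had a course with its highest value at day 1, like Krt8 and Krt20, at 4.31 ± 0.33 (SE, limma adjusted p = 1.24e-08), then 1.15 and 0.49, the last not called. It reached 1 FPKM in transplant libraries only, so its p-values are descriptions. Fos and Fosl2 had their highest transplant mean at day 7 instead, at 4.05 and 11.9 FPKM against 2.32 and 10.4 at day 1. The other tested members had theirs at day 1. Genes whose proteins are found with keratin in Mallory-Denk bodies of the liver rose chiefly early, 5, 3 and 2 of 7, with 0 falling, and under median-of-ratios scaling 4 rose at day 1, 2 rose and 2 fell at day 7, and 0 rose and 3 fell at day 14. Hspb1, which encodes the small heat shock protein HSP25, measured 112 ± 51.5 against 3.63 ± 0.550 FPKM at day 1 and rose by 4.48, 3.15 and 0.94. Cryab, which encodes alpha B-crystallin, rose by 3.84 and 1.81 at days 1 and 7. Injury genes of the tubule rose 8 of 8 on each day, under both scalings.

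Markers of cell types that could carry keratins were set beside these results. Urothelial markers summed to 1.34 to 4.40 FPKM in the transplant libraries of day 1, where Krt20 reached 794 FPKM, and to 0.178 to 1.99 FPKM in sham. Of the 4 uroplakin genes in the list, Upk1a, Upk2 and Upk3a were listed at 0 in all 3 transplant libraries of that day, and Upk1b measured 0.548, 0.0654 and 0 FPKM, against 0, 0.303 and 0.0268 FPKM in sham. Of the 4 urothelial markers tested, 1 rose at day 1, namely Krt5, a share no higher than that of all tested genes (29.6%). At day 14 the sum was 5.01 to 10.7 FPKM in transplant and 0.872 to 3.11 FPKM in sham, 3 of 4 rose (2 under median-of-ratios scaling), and Krt20 was at its lowest transplant level. Among the tested urothelial markers, Krt5 and Psca reached 1 FPKM in transplant libraries only, and Upk1b mostly there. The counts of risen urothelial markers therefore follow in part from the filter and are descriptions. Mesothelial markers summed to 12.2 to 17.3 FPKM in transplant and 36.4 to 47.5 FPKM in sham at day 1, with Upk3b, Lrrn4 and Bnc1 listed at 0 in transplant. Nearly all of that sum was Gpm6a, at 13.4 ± 2.47 FPKM in transplant and 41.5 ± 5.41 in sham, while Msln was at 0.537 ± 0.528 and 0.0840 ± 0.145 FPKM.

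As a sum, collecting duct markers followed a course closer to that of Krt7, though not every member did. They summed to 127 ± 28.2 in transplant and 126 ± 18.1 FPKM in sham at day 1, 229 ± 21.1 and 116 ± 10.4 at day 7 and 183 ± 42.5 and 117 ± 11.0 at day 14. Of 7 tested, 1 rose and 1 fell at day 1, 5 rose at day 7 and 4 rose at day 14, against 0 and 1, 2 and 2 under median-of-ratios scaling. Aqp2, the water channel gene of principal cells, rose by 1.79 ± 0.26 (SE, limma adjusted p = 4.09e-05) at day 7 and by 1.06 at day 14. In contrast, Aqp3 averaged 17.5, 24.9 and 21.6 FPKM in transplant at days 1, 7 and 14, against 30.5, 23.8 and 23.9 in sham. Avpr2 averaged 0.290, 1.70 and 0.906 FPKM in transplant, against 1.06, 0.615 and 1.43 in sham. The part of the collecting duct in the Krt7 values was not tested.

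Proximal tubule markers summed to 507 ± 175, 995 ± 16.4 and 1482 ± 321 FPKM in transplant against 2385 ± 183, 2309 ± 206 and 2320 ± 150 in sham at days 1, 7 and 14, and 7, 4 and 3 of 7 fell (7, 6 and 3 under median-of-ratios scaling). Of 4 pan-epithelial markers, 3, 2 and 2 rose and 0 fell, and under median-of-ratios scaling the same numbers rose and 1, Cdh16, fell at day 1 (-0.49, limma adjusted p = 0.0185). Krtcap3 rose by 1.33 at day 1 (limma adjusted p = 0.00604). Leukocyte markers rose in 1 of 6 at day 1, with 1 fallen, a share below that of all tested genes, and in 6 of 6 at days 7 and 14 (5 of 6 at day 14 under median-of-ratios scaling). The part of any of these cell types in the keratin values was not tested.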

How the data were processed

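Kidney RNA of 18 mouse libraries was measured as FPKM, which the authors deposited as 1 table. DESeq2 (role unstated) and the build mm10 appear in the submitters' processing notes, while aligner, quantifier and annotation were not given in the sources used here. Depth is unknown: 13.2% to 15.9% of low values were whole multiples of 1 fragment (tolerance 0.05), so reads could not be recovered. Groups came from the titles. Letters missing from identifiers were restored, 54802 of 54831 matched GENCODE M21 (GRCm38, the assembly of mm10), and 17 rows with repeated identifiers were left out.

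The 15278 genes that reached an FPKM of 1 in 3 or more libraries were fitted as 6 group means of log2(FPKM + 1) with limma 3.58.1 in R 4.3.3, with robust moderation that followed the mean, and tested on simulated data first. Ratios to Krt8 (0.1 added) were compared by exact permutation of labels within days, adjusted over 4 ratios, and between days. The keratins and all lists were chosen with earlier results of these data known. Named genes were the 5 keratins, other keratins that were tested, up to 3 called genes per list and day with the smallest adjusted p (not all are named), and 3 nearest genes per keratin (1 gene picked by this rule is not reported here). Krt8-ps, Krt14, Krtcap3, Cdh16, Upk1b, Psca, Gpm6a, Msln, Aqp2, Aqp3, Avpr2, Fos and Fosl2 were chosen after their values were seen. List members named for a second day were chosen likewise. Alternatives were other pseudocounts, filters and scalings, only the groups compared, the replicate number as a block, no mitochondrial genes, and each library left out. Protein sequences and the motifs planned for them were not analysed here. Tables were handled with Python 3.11.15, figures with matplotlib 3.10.9.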

Additional observations from a re-analysis of the deposited data

Results flagged for a closer look

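For 3 keratins the transplant effect differed between days, by the limma contrast of effects. Krt8 and Krt20 had a smaller effect at day 7 than at day 1, with differences of -1.94 and -4.83 on the log2 scale, and at day 14 than at day 1, with -2.57 and -6.29. Krt7 had a larger effect at day 7 than at day 1, by 1.18. Without a filter on low values the Krt7 difference was called no longer (limma adjusted p = 0.0529).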

How the results depend on the processing

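Of 240 counts of called keratins under the alternatives, 13 differed from the reported count, each by 1. At day 1 the count was 4 in place of 5 under 4 settings, since Krt7 lost its call under median-of-ratios scaling, with only the groups compared and without transplant library 2, and Krt19 was not tested with a mean FPKM of at least 5. That last filter also gave 4 at days 7 and 14. For the change from day 1 to day 7 it was 2 in place of 3 with no filter, where Krt7 was not called, and from day 1 to day 14 it was 3 in place of 2 under 6 settings. No called log2 fold change of a keratin turned its sign. With 1 added before the ratio in place of 0.1, Krt18 to Krt8 differed by 0.61 and Krt19 to Krt8 by 0.74 (exact permutation adjusted p = 0.0688 for each), no longer called. With the replicate number as a block the Krt18 to Krt8 difference of 0.87 had an exact permutation adjusted p = 0.0625. Same-numbered libraries did not deviate together over all tested genes (correlations of -0.0409 to 0.101). With 3 libraries per group this cannot exclude a pairing by the replicate number, which the labels do not state. Leaving out 1 library gave 0.68 to 0.997 for Krt18, 2.85 to 3.48 for Krt19, 4.71 to 5.05 for Krt20 and -1.06 to -0.91 for Krt7 relative to Krt8, with the calls of the first 3 kept. Those of Krt19 and Krt20 are descriptions. The Krt7 change of effect from day 1 to day 14 became called under 6 settings, among them median-of-ratios scaling (0.89, limma adjusted p = 0.0325), the replicate block (0.83, limma adjusted p = 0.0431) and without transplant library 2 of day 1 (1.10, limma adjusted p = 0.00401). Krt19 gave no value with a mean FPKM of at least 5, and sham contrasts gave none with the block. At day 7, 6336 genes were called, against 3721 under median-of-ratios scaling. The causes were not tested.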
